A study of Homo sapiens with 6 samples.

Results

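MicroRNA genes with a number of at most 3 digits and the let-7 genes were followed by their nascent transcription in the human melanoma line A375, which is an established line. Symbols starting with MIRLET7, or with MIR and a number of 1 to 3 digits, were taken. Host gene symbols containing HG and the 6 genes of the miR-17-92 cluster were left out, and of several rows with the same symbol the row of highest mean density in the gene body was kept. The rule found 158 of the 12438 gene symbols, in 172 of 22442 rows. The 3 groups of cells had been treated for 48 h, with 25 µM leflunomide, with 25 µM A771726 or with the solvent DMSO, and each group holds 2 of the 6 samples. Leflunomide is a prodrug with an isoxazole ring, and A771726 (teriflunomide) is the metabolite in which that ring is open. Dihydroorotate dehydrogenase, an enzyme of pyrimidine nucleotide synthesis, is the target both compounds are used against. The assay was global run-on sequencing (GRO-seq), which lets polymerases already on a gene run on in nuclei and reads the RNA they make, so a value reflects polymerase on the gene and not the amount of mature microRNA.

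A microRNA gene is transcribed as a longer primary transcript, from a start site of its own or as part of a host gene's intron or exon. The nuclease Drosha cuts a hairpin out of that transcript, Dicer cuts the hairpin to a short duplex, and an Argonaute protein carries the chosen strand to messenger RNAs that pair with its seed, which are then repressed. In melanoma and other tumours the let-7 family is known for repressing growth regulators such as RAS and HMGA2, miR-21 and the pair of miR-221 and miR-222 for promoting growth, and the miR-34 family for acting downstream of p53.

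Mature sequences could be matched for 142 of the 158 genes in RefSeq (GRCh38.p14), and those that the results below turn on are printed 5′ to 3′ with the seed, bases 2 to 8, in capitals. The let-7 genes are shown first, because all 8 of them carry 1 seed and lie at several loci.
let-7a-5p (MIRLET7A1, MIRLET7A2, MIRLET7A3): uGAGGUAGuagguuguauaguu
let-7b-5p (MIRLET7B): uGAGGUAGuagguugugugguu
let-7d-5p (MIRLET7D): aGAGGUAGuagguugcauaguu
let-7e-5p (MIRLET7E): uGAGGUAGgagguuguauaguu
let-7f-5p (MIRLET7F1): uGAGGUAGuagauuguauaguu
let-7i-5p (MIRLET7I): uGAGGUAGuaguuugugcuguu
Compared base by base with let-7a-5p, let-7e-5p and let-7f-5p differ at 1 position each, let-7b-5p and let-7d-5p at 2 each and let-7i-5p at 4. MIRLET7A1, MIRLET7F1 and MIRLET7D lie close together on chromosome 9, with the mature let-7a-5p of MIRLET7A1 at chr9:94175962-94175983. MIRLET7A3 and MIRLET7B are neighbours in exons of MIRLET7BHG on chromosome 22, MIRLET7A2 lies in an intron of MIR100HG on chromosome 11, MIRLET7E in an intron on chromosome 19 and MIRLET7I in an intron of a non-coding gene on chromosome 12.

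The next sequences belong to seed families whose genes sit at several loci, the miR-29 family and the family of miR-34 and miR-449.
miR-29a-3p (MIR29A): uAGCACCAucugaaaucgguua
miR-29b-3p (MIR29B1, MIR29B2): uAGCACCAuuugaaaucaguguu
miR-29c-3p (MIR29C): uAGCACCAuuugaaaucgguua
miR-34a-5p (MIR34A): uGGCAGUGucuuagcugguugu
miR-449a (MIR449A): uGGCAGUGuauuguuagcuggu
miR-449b-5p (MIR449B): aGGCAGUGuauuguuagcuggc
The last set holds products of the loci with the most polymerase or with libraries that separate the groups: miR-21, the pair of miR-221 and miR-222, the miR-25/93/106b cluster, miR-31, miR-100 and miR-146a.
miR-21-5p (MIR21): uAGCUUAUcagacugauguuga
miR-221-3p (MIR221): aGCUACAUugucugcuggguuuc
miR-222-3p (MIR222): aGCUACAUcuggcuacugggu
miR-25-3p (MIR25): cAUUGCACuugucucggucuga
miR-93-5p (MIR93): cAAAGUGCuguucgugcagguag
miR-106b-5p (MIR106B): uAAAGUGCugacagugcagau
miR-31-5p (MIR31): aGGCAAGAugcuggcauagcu
miR-100-5p (MIR100): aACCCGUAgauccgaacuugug
miR-146a-5p (MIR146A): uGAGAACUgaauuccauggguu
Among the matched mature sequences, the let-7 seed GAGGUAG was the most shared, in 8 genes. In 4 genes each followed the miR-29 seed AGCACCA, the miR-15/16 seed AGCAGCA and UAUACAA, the seed of the -3p products of 4 let-7 genes.

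The deposited values are mean read densities of a promoter and a gene body window for each group, on a scale that the sources used here do not give. They are the authors' means, and the values of the 2 libraries behind a mean were solved from the mean densities and the mean traveling ratio where the arithmetic allowed. A recovered pair is given with the higher library first. Which of them is replicate a or b is not known. In the member rows 1 gene body read was worth 0.00745 and 0.00809 density units with leflunomide, 0.00516 and 0.00674 with A771726, and 0.00941 and 0.0112 in DMSO. Of the recovered member values, 71.0% to 92.2% per library lay within 0.1 of a whole number of reads, where 20% would do so by the width of that margin. The value of 1 gene body read was the best fit to these same values, within a limited range below the promoter value. The 20%, which holds for a value fixed beforehand, is thus too low a yardstick. A promoter read was worth 4.65 to 4.66 times as much as a gene body read in every library, so the gene body window of a typical microRNA row is that much longer than its promoter window and reaches past the hairpin. The median member past the filter held between 12.1 and 13.2 reads over the 2 libraries with leflunomide, 9.2 to 12 with A771726 and 7.9 to 9.4 in DMSO, the range covering which library the reads came from. Counting error therefore limits most single genes. The 2 libraries of a group differed by a median of 0.85 (log2) with leflunomide, 1.65 with A771726 and 0.73 in DMSO over the members, against 0.33, 0.49 and 0.41 over all genes. No DMSO row has a gene body density of 0 or a ratio above 7.5, so the deposited rows were selected on DMSO values. Among the members, 16 had 1 library at 0 with leflunomide and 35 with A771726, against 0 in DMSO, and 3, 3 and 0 had both libraries at 0. The same counts over all genes were not made. The part of the selection on DMSO values in the results below was not tested.

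Of the members, 138 passed the filter on low values, a mean gene body density over the 3 groups at or above the 30th percentile (0.00872). A member can pass it through 1 group alone. MIR331, with 0.00405 with leflunomide and 0.0026 with A771726, passed through its 0.0215 in DMSO. MIR154 did so too, with 0.00405, 0.00595 and 0.0323. Both count as lower with each compound below, and the part of the filter in those counts was not tested. Their median density was 0.0491 with leflunomide, 0.0312 with A771726 and 0.0439 in DMSO, against 0.0294, 0.0206 and 0.0306 over all 8706 genes past the filter. MIR21, at the 3′ end of the protein-coding gene VMP1 and one of the most abundant microRNA genes of tumour cells, had the highest mean of all members. Its density was 0.650 with leflunomide, 0.392 with A771726 and 0.413 in DMSO. The recovered pair was 0.427 and 0.357 with A771726 and 0.446 and 0.380 in DMSO, so those groups overlapped. MIR612 followed with 0.441, 0.374 and 0.313. It lies in an exon of NEAT1, the RNA scaffold of nuclear paraspeckles, and its reads cannot be told apart from those of NEAT1. MIR324 had 0.293 with leflunomide, 0.229 with A771726 and 0.317 in DMSO. MIR614 in GPRC5A, MIR636 in the splicing factor gene SRSF2 and MIR611 in TMEM258 were also among the 10 densest members, and each overlaps an exon of its host. The other 4 of the 10 were MIRLET7I, MIR222, MIR150 and MIR221.

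**Figure D1:**
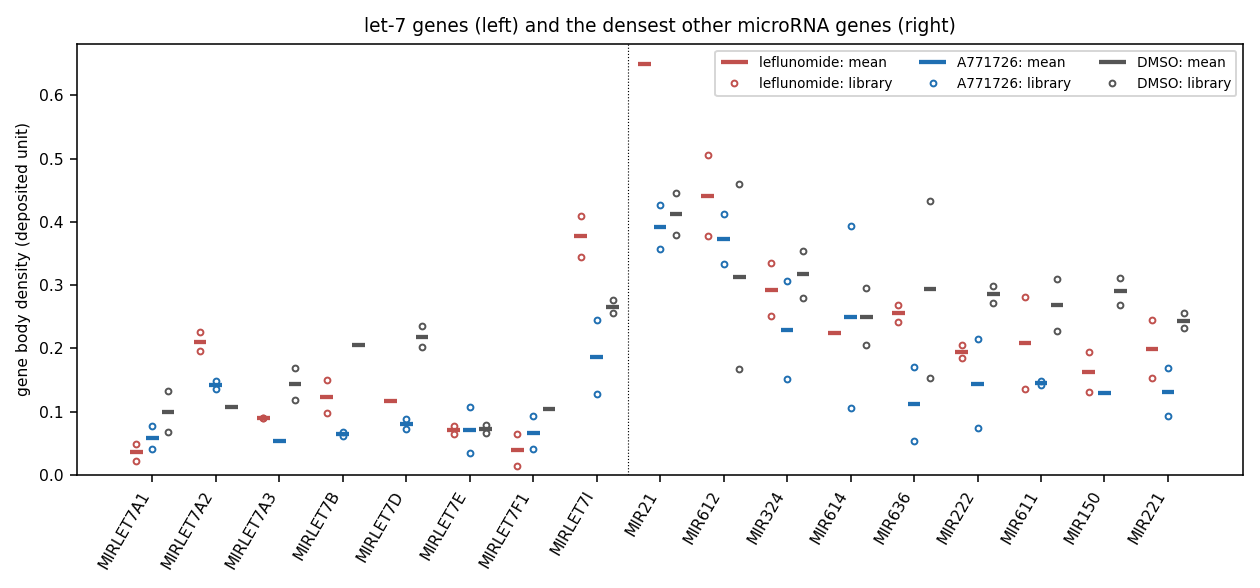
Gene body density (deposited unit) of the 8 let-7 genes, left of the dotted line, and of the 9 densest other members, right of it, for leflunomide, A771726 and DMSO from left to right. Bars are the authors' means and open circles recovered libraries, missing where they could not be solved. MIRLET7I lies at 0.377 with leflunomide, 0.187 with A771726 and 0.266 in DMSO, and MIR21 reaches 0.650 with leflunomide.

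The let-7 genes were mostly below DMSO in the means with both compounds. With leflunomide 2 of the 8 were at least 2-fold lower than DMSO and 0 were 2-fold higher, against 4.49% and 1.84% of all genes, and their median log2 difference was -0.70, against -0.06. With A771726 the counts were 3 lower and 0 higher, against 18.5% and 0.839%, with a median of -0.68, against -0.52. The 2 lower with leflunomide, MIRLET7A1 and MIRLET7F1, are neighbours, as are MIRLET7A3 and MIRLET7B among the 3 lower with A771726. Neighbours are not separate evidence, while the shares count every gene. MIRLET7I, the densest of the family, had library values of 0.410 and 0.345 with leflunomide, 0.245 and 0.128 with A771726, and 0.276 and 0.256 in DMSO. Both leflunomide libraries lay above both DMSO libraries and both A771726 libraries below them. MIRLET7A1 gave 0.0487 and 0.0225 with leflunomide, 0.0779 and 0.0405 with A771726, and 0.132 and 0.0673 in DMSO. Here both leflunomide libraries lay below DMSO, while those of A771726 overlapped it. Its neighbour MIRLET7F1 averaged 0.0398 with leflunomide, 0.0668 with A771726 and 0.104 in DMSO, within 11.4% of MIRLET7A1 in every group, and the pair lies so close that the windows may share reads. MIRLET7D, further along the same cluster, averaged 0.118, 0.0802 and 0.219.

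The mature let-7a-5p printed above comes from 3 genes, and these were ordered differently. MIRLET7A2 had 0.225 and 0.195 in the leflunomide libraries and 0.148 and 0.136 in the A771726 libraries, against a DMSO mean of 0.107, which is a log2 difference of 0.96 and 0.40. MIRLET7A3 had 0.0900 and 0.0894 with leflunomide and a mean of 0.0537 with A771726, against 0.169 and 0.118 in DMSO, or -0.67 and -1.38. MIRLET7B beside it had a mean of 0.123 with leflunomide, 0.0649 with A771726 and 0.206 in DMSO. MIRLET7E was level, with 0.0715 with each compound and 0.0724 in DMSO. The differences between these loci were not tested. In limma, over the 4417 genes with all 6 libraries recovered, MIRLET7A1 differed by -1.45 with leflunomide (95% interval -2.73 to -0.16, adjusted p = 0.999). For MIRLET7I, limma gave 0.50 for leflunomide over DMSO (-0.34 to 1.33, adjusted p = 0.999). The A771726 change of that gene in limma was -0.58 (-1.41 to 0.26, adjusted p = 0.341).

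With leflunomide the members spread widely to both sides of DMSO. At least 2-fold higher were 17 of 138 members (12.3%), against 1.84% of all genes, and at least 2-fold lower were 22 (15.9%), against 4.49%. The median change was -0.08 for the members and -0.06 for all genes, so the list as a whole stood where the median gene did. Of the 22 lower members, 11 held at most 3 leflunomide reads and 9 had a leflunomide library at 0. A pseudocount 5 times larger left 9 higher and 14 lower, and the share over all genes at that setting was not computed.

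**Figure D2:**
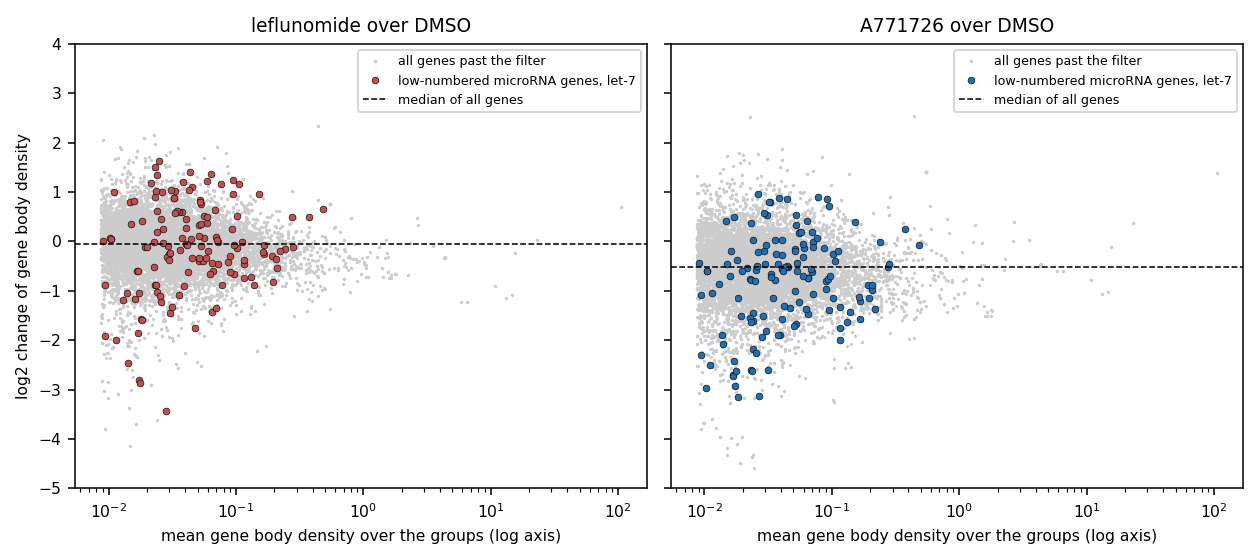
Log2 change of gene body density, leflunomide over DMSO (left) and A771726 over DMSO (right), against the mean density over the groups (log axis), with each member as a filled circle, the 8706 genes past the filter as grey points and their median as a dashed line. Members spread to both sides of the line, whose level is -0.06 with leflunomide and -0.52 with A771726.

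The 8 highest members with leflunomide relative to DMSO were MIR374A, MIR545, MIR561, MIR31, MIR301A, MIR100, MIR499A (a row now annotated as MIR499B) and MIR26B. Of these, MIR374A and MIR545 are neighbours in an intron of FTX, a non-coding gene next to XIST. MIR374A had 0.0651 and 0.0375 with leflunomide, 0.0156 and 0 with A771726, and 0.0189 and 0.0113 in DMSO, which is 12.7 to 13.8 reads against 2.7 to 3.2 in DMSO. Leflunomide libraries lay above DMSO and above A771726 without overlap, and the same held for MIR545 (0.0563 and 0.0365, against 0.0187 and 0.0111 in DMSO). Their values differ by at most 9.6% between the neighbours, so they are not separate evidence. FTX itself differed from DMSO by 0.21 (log2).

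MIR31, in an intron of MIR31HG on chromosome 9 and near the tumour suppressor gene CDKN2A, had 0.122 and 0.0797 with leflunomide, 0.0833 and 0.0203 with A771726, and 0.0536 and 0.0225 in DMSO. The leflunomide libraries lay above those of DMSO, and those of A771726 overlapped both. MIR100, whose product is known to target the growth kinase mTOR, had 0.138 and 0.132 with leflunomide, 0.133 and 0.0540 with A771726, and 0.0574 and 0.0545 in DMSO. Its leflunomide change in limma was 1.24 (95% interval 0.19 to 2.29, adjusted p = 0.999). MIRLET7A2 shares the host gene of MIR100, and MIR125B1, also in MIR100HG, had means of 0.0713, 0.0458 and 0.0984, on the other side of DMSO.

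MIR146A, a gene that NF-κB switches on and whose product dampens innate immune signalling, had 0.163 and 0.150 with leflunomide, 0.0516 and 0.0403 with A771726, and 0.103 and 0.0557 in DMSO. The leflunomide libraries were the highest and the A771726 libraries the lowest, with no overlap among the groups. In limma it differed by 1.02 under leflunomide (95% interval 0.13 to 1.92, adjusted p = 0.999). Under A771726 the limma change was -0.71 (-1.61 to 0.19, adjusted p = 0.303). MIR671, in an exon of the chondroitin synthesis gene CHPF2, had 0.224 and 0.133 with leflunomide, 0.0683 and 0.0496 with A771726, and 0.112 and 0.0443 in DMSO. MIR718 had 0.130 and 0.113, 0.0705 and 0.0407, and 0.0676 and 0.0379 in the same order. At both genes the A771726 libraries overlapped DMSO and the leflunomide libraries lay above it.

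At the other end with leflunomide stood MIR130A, MIR762, MIR496, MIR154, MIR593, MIR331, MIR938 and MIR645. At the first 7, the leflunomide mean was 0.00370 to 0.00405, made of 1 library with the value of 1 read and 1 library at 0. MIR130A, known from blood vessel growth, had that 1 read with leflunomide and 0.0310 and 0 with A771726, against a DMSO mean of 0.0656, worth 11.7 to 13.9 reads. MIR154 and MIR496 belong to the imprinted DLK1-DIO3 microRNA cluster on chromosome 14, and each had 1 leflunomide read, against DMSO means of 0.0323 and 0.0415. With so few reads no fold change is given for these genes.

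Among the members with library values, 11 of 71 had both leflunomide libraries above both of DMSO and 10 of 71 had both below, which is 15.5% and 14.1%. Over all genes the shares were 13.7% and 20.9%, and these differences in share were not tested.

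**Figure D3:**
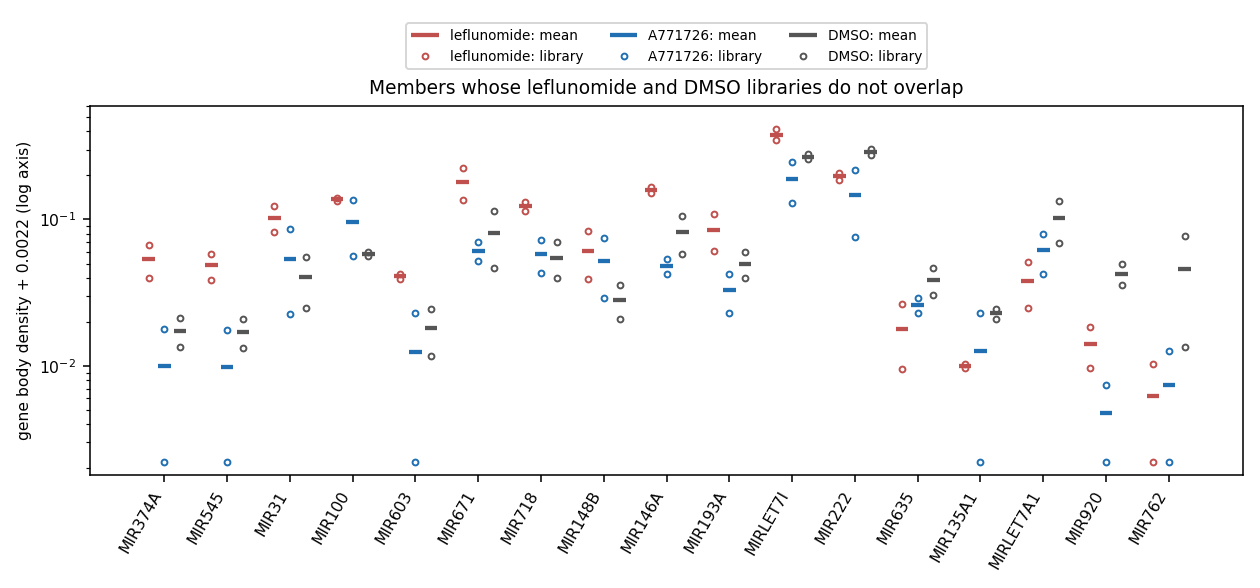
Gene body density plus the pseudocount of 0.0022 (log axis) at the 17 members whose leflunomide and DMSO libraries do not overlap and whose libraries are known in all 3 groups, ordered by the leflunomide change. Bars are the authors' means, open circles libraries, in the order leflunomide, A771726, DMSO. The 11 members at the left are higher with leflunomide and the 6 at the right lower, and circles at the bottom are libraries at 0.

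With A771726 the members were mostly lower than DMSO, as were genes in general. Of 138, 52 (37.7%) were at least 2-fold lower, against 18.5% of all genes, and 0 were 2-fold higher, against 0.839%. The median change was -0.69 for the members and -0.52 for all genes. Relative to the median gene, 31 (22.5%) were at least 2-fold lower and 12 (8.7%) higher, against 5.73% and 3.6% of all genes. Of the 52, 20 held at most 3 A771726 reads and 23 had a library at 0. Some of them, such as MIR331 and MIR154, passed the filter through DMSO alone. In the libraries, 34 of 77 members (44.2%) had both A771726 values below both of DMSO, under the 54.3% of all genes, and 1 had both above, MIR10A (1.3%, against 1.91%).

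The melanocyte and melanoma list named 17 microRNA genes, of which 6 are in the tables and 6 passed the filter. With leflunomide 2 were 2-fold higher, MIR31 and MIR148B, and 0 lower, where 1.84% and 4.49% of all genes were, and the median was 0.77, against -0.06. With A771726 0 passed 2-fold in either direction, where 0.839% of all genes were higher and 18.5% lower, and the median was 0.15, against -0.52. MIR148A and MIR148B share the seed CAGUGCA, and miR-148 is known to target MITF, the master regulator of melanocytes. MIR148B had 0.0806 and 0.0372 with leflunomide, 0.0722 and 0.0268 with A771726, and 0.0334 and 0.0188 in DMSO, with only the leflunomide libraries clear of DMSO. MIR148A averaged 0.0317, 0.0214 and 0.0160, from 2.9 to 3.4 reads in DMSO. MIR221 and MIR222, which are known to target the cell cycle inhibitor p27 and the receptor KIT, stood on the other side. MIR222 had 0.205 and 0.185 with leflunomide, 0.215 and 0.0735 with A771726, and 0.299 and 0.272 in DMSO. MIR221 had 0.244 and 0.153, 0.170 and 0.0936, and 0.255 and 0.233. Both compounds' libraries lay below DMSO at MIR222, and at MIR221 those of A771726 did. The limma change with A771726 was -1.16 at MIR222 (95% interval -2.32 to -0.01, adjusted p = 0.237) and -0.94 at MIR221 (-1.85 to -0.03, adjusted p = 0.231).

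Of 13 proliferation-linked genes listed, 9 are in the tables and 8 passed the filter. With leflunomide 0 passed 2-fold in either direction, and the median of -0.04 was near that of all genes (-0.06). With A771726 3 were lower, where 18.5% of all genes were, and the median of -0.61 was again near that of all genes (-0.52). Those 3 lie at 1 locus, the cluster MIR25, MIR93 and MIR106B, which lies in an intron of the replication helicase gene MCM7, is activated by E2F and is known to repress the cell cycle inhibitor p21 and the death factor BIM. MIR25 had 0.227 and 0.157 with leflunomide, 0.119 and 0.0337 with A771726, and 0.236 and 0.224 in DMSO. MIR93 had 0.243 and 0.157, 0.140 and 0.0405, and 0.217 and 0.202 in that order. MIR106B had 0.219 and 0.142, 0.150 and 0.0405, and 0.213 and 0.208. At all 3 genes both A771726 libraries lay below DMSO, and the leflunomide libraries overlapped it. The host MCM7 had means of 0.142, 0.0893 and 0.165, a change of -0.87 with A771726, against -1.56 at MIR25, -1.19 at MIR93 and -1.12 at MIR106B. In limma, MIR25 differed by -1.81 with A771726 (95% interval -3.15 to -0.48, adjusted p = 0.190). The miR-15/16 family comes from MIR15B and MIR16-2 in an intron of the chromosome condensation gene SMC4, and from MIR195 and MIR497. MIR15B and MIR16-2 had means of 0.0533 and 0.0536 with leflunomide, 0.0194 and 0.0249 with A771726, and 0.0346 and 0.0348 in DMSO, while MIR195 was near level at 0.116, 0.102 and 0.117. MIR155 had both leflunomide libraries at 0, 0.0068 and 0 with A771726, and a DMSO mean of 0.0170, below the filter.

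Of the p53-responsive list MIR34A alone is in the tables. It had 0.0562 and 0.0085 with leflunomide, 0.0257 and 0 with A771726, and 0.0444 and 0.0374 in DMSO, so A771726 lay below DMSO and leflunomide spanned it. The genes with the same seed stood on the other side of DMSO. MIR449A and MIR449B, both in an intron of CDC20B and nearly identical in value (0.3% apart at most), averaged 0.0395 and 0.0394 with leflunomide and 0.0373 and 0.0372 with A771726, against 0.0206 in DMSO. Those means stand for 9.7 to 10.6 leflunomide reads, 11 to 14.4 A771726 reads and 3.7 to 4.4 DMSO reads, and their library values could not be solved.

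Of 23 broadly expressed genes listed, 12 are in the tables and passed the filter. With leflunomide 1 was 2-fold higher and 4 lower, against 1.84% and 4.49% of all genes, with a median of -0.14, against -0.06. With A771726 0 were higher and 5 lower, against 0.839% and 18.5%, and the median of -0.33 lay above that of all genes (-0.52). The higher gene was MIR26B in the phosphatase gene CTDSP1, with means of 0.0525 with leflunomide, 0.0416 with A771726 and 0.0216 in DMSO. Its host stood alike, at log2 differences of 1.05 and 0.71 beside 1.20 and 0.88 for MIR26B. MIR26A2, which shares the seed UCAAGUA, had 0.0224 and 0.0162 with leflunomide, 0.0472 and 0.0415 with A771726, and 0.0755 and 0.0112 in DMSO, where the DMSO libraries enclose all the others. The miR-29 genes, known to repress collagens and the DNA methyltransferases, come from 2 loci. MIR29A on chromosome 7 had 0.0898 and 0.0527 with leflunomide, 0.0418 and 0.0136 with A771726, and 0.0790 and 0.0570 in DMSO, and MIR29B1 beside it 0.0929 and 0.0406, 0.0415 and 0, and 0.0897 and 0.0521. At both, A771726 lay below DMSO and leflunomide overlapped it. At the chromosome 1 locus MIR29C averaged 0.0625, 0.0435 and 0.0488 and MIR29B2 0.0431, 0.0377 and 0.0546. The A771726 changes were -1.23 and -1.67 at the first locus, MIR29A and MIR29B1, and -0.16 and -0.51 at the second, MIR29C and MIR29B2, a difference that was not tested. MIR30A, in an intron of LINC00472, had a mean of 0.0153 with leflunomide and 0.0052 and 0 with A771726, against 0.0569 and 0.0113 in DMSO.

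Genes known from other tissues were sparse. Of the lists for nerve, liver and stem cells 0 members are in the tables. The same holds for muscle by the symbols listed. That list names MIR499, however, and MIR499A is in the tables, in a row now annotated as MIR499B. Of 6 blood cell genes 4 are. With leflunomide 0 passed 2-fold, and the median was -0.59, against -0.06 over all genes. With A771726 3 were lower, where 18.5% of all genes were, with a median of -1.93, against -0.52. MIR144 and MIR451, an erythroid pair with values within 0.7% of each other, had 1 A771726 library at 0 and 1 at 0.0052, the value of 1 read, against 0.0471 and 0.0112 for MIR144 in DMSO. MIR150, a lymphocyte gene, had 0.194 and 0.131 with leflunomide and a mean of 0.130 with A771726, against 0.311 and 0.269 in DMSO. Of 6 epithelial genes the neighbours MIR200C and MIR141 are in the tables. MIR200C averaged 0.110 with leflunomide, 0.0538 with A771726 and 0.185 in DMSO, and MIR141 0.128, 0.0429 and 0.177. MIR126, an endothelial gene in EGFL7, had 0.0393 and 0.0149 with leflunomide, 0.0155 and 0 with A771726, and a DMSO mean of 0.0198. All samples are the A375 line, and in bulk cells a lower value in every cell and in part of the cells cannot be told apart.

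Of 11 melanocyte marker symbols, 6 are in the tables and 5 passed the filter. TYR, TYRP1, DCT and S100B are absent, and SILV is an older name of PMEL, which is also listed. The densest was the lineage factor SOX10, with 0.330 with leflunomide, 0.273 with A771726 and 0.329 in DMSO. The others went both ways. With leflunomide and A771726 the log2 differences were 0.97 and 0.62 at PMEL and 0.77 and 0.29 at MITF. They were -0.06 and -0.70 at S100A1, -0.46 and -0.26 at PAX3, and -1.30 and -1.35 at MLANA, which lies below the filter. Among 10 markers of other cell types 4 are in the tables. PTPRC, CD3E, EPCAM, KRT5, ALB and MYH7 are not, the endothelial genes PECAM1 and CDH5 lie below the filter, and CD79A and KRT14 passed it. The B cell gene CD79A had 0.0486 with leflunomide, 0.0616 with A771726 and 0.105 in DMSO, log2 differences of -1.07 and -0.74. The keratin gene KRT14 had 0.0101, 0.00385 and 0.0204, differences of -0.88 and -1.90. CD79A and KRT14 were thus lower with both compounds. Below the filter, CDH5 was lower too (-0.35 with leflunomide and -0.44 with A771726), while PECAM1 was higher (0.45 and 0.40). The means of MIR144, MIR451, MIR150, MIR200C and MIR141 were lower with both compounds. Those of MIR146A and MIR126 were higher with leflunomide (0.96 and 0.42) and lower with A771726 (-0.76 and -1.14). What these differences come from was not tested.

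The lowest members with A771726 were MIR920, MIR548K, MIR644, MIR30A, MIR451, MIR144, MIR762 and MIR132. MIR920, on chromosome 12 with no host on its strand, had 0.0163 and 0.0075 with leflunomide, 0.0052 and 0 with A771726, and 0.0473 and 0.0337 in DMSO, so both compounds lay below DMSO without overlap. It had the smallest p of all members in limma for A771726 over DMSO (unadjusted p = 0.00145, adjusted p = 0.153), on 0.8 to 1.0 A771726 reads. MIR644 is listed at 0 with A771726, against 0.0158 with leflunomide and 0.0150 in DMSO. MIR132 and MIR212, a pair known from neurons, had identical values to within 0.4%, with 0.0103 and 0 in the A771726 libraries, 0.0446 and 0 with leflunomide at MIR132, and a DMSO mean of 0.0428. MIR573, in an intron of the splicing helicase gene DHX15, had 0.0588 and 0.0446 with leflunomide, 0.0201 and 0.0131 with A771726, and 0.0669 and 0.0403 in DMSO. It differed by -1.55 with A771726 in limma (95% interval -2.47 to -0.63, adjusted p = 0.155), and DHX15 by -0.52 in the means.

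The highest members with A771726 were MIR449C, MIR484, MIR26B, MIR148B, MIR10A, MIR449A, MIR449B and MIR100. MIR484, at the start of the cell division gene NDE1, had 0.0568 and 0.0150 with leflunomide, 0.162 and 0.0947 with A771726, and 0.113 and 0.0224 in DMSO. The A771726 libraries overlapped DMSO there and lay above leflunomide. MIR10A, in an exon of HOXB4 and part of the HOXB cluster, had 0.143 and 0.0219 with leflunomide, 0.134 and 0.118 with A771726, and 0.0999 and 0.0374 in DMSO.

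Leflunomide and A771726 differ by the opening of the isoxazole ring and were given at the same dose and time, so they form 1 pair to compare. With A771726, 51 of 138 members (37.0%) were at least 2-fold lower than with leflunomide, against 12.4% of all genes, and 5 (3.62%) at least 2-fold higher, against 1.03%. The median difference was -0.64 for the members and -0.47 for all genes. Relative to the median gene 28 (20.3%) were lower and 12 (8.7%) higher, against 3.77% and 3.38% of all genes. In the libraries 24 of 79 members (30.4%) had both A771726 values below both of leflunomide, where 54.1% of all genes did, and 3 (3.8%) had both above, where 2.18% did. MIR146A had the smallest p of the members in limma, with a difference of -1.73 (95% interval -2.63 to -0.84, adjusted p = 0.348). MIRLET7I differed by -1.07 (-1.91 to -0.24, adjusted p = 0.348 in limma) and MIR671 by -1.53 (-2.73 to -0.33, adjusted p = 0.348). MIR100 differed by -0.65 (-1.70 to 0.39, adjusted p = 0.412 in limma), MIRLET7E by -0.20 (-1.45 to 1.05, adjusted p = 0.813) and MIRLET7A1 by 0.72 (-0.56 to 2.01, adjusted p = 0.438), intervals that hold both 0 and differences over 2-fold. MIR938 had the largest difference upwards, with 0.0363 and 0.0202 with A771726, against 0.0075 and 0 with leflunomide. MIR620 is listed at 0 with A771726, against a mean of 0.0230 with leflunomide.

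Over the 4417 genes with all libraries recovered, 63 of them members, limma (version 3.58.1) called 0 genes (0%) at an adjusted p under 0.05 in each of the 3 comparisons. At an unadjusted p under 0.05 stood 6 members (9.52%) for leflunomide over DMSO, 13 (20.6%) for A771726 over DMSO and 14 (22.2%) for A771726 over leflunomide, against 4.3%, 20.9% and 14.1% of all genes. The smallest adjusted p among the members was 0.999, 0.153 and 0.348. Leaving out library 1 of A771726, in the 3069 genes where the libraries can be told apart, gave 101 calls (3.29%), all lower with A771726 than in DMSO, and 5 of the 40 members among those genes (12.5%) were called. A771726 is then 1 library, which is assumed to vary like those of the other groups. Median densities of those genes were 0.0370 and 0.0345 in the leflunomide libraries, 0.0272 and 0.0223 in the A771726 libraries, and 0.0399 and 0.0346 in the DMSO libraries. The labels say only that treatments were in duplicate, so these p-values measure the spread between these samples, which may be technical.

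By GENCODE annotation (v29), 87 of the 158 members lie in an intron, 39 overlap an exon of a gene on the same strand and 32 have no host on their strand. Past the filter, the 38 exonic members had a median density of 0.0569 and a median log2 difference of -0.12 with leflunomide and -0.50 with A771726. The 76 intronic ones had 0.0389, with -0.03 and -0.68, and the 24 without a host 0.0234, with -0.37 and -1.25. The last group was also the least dense, and the part of density in its median was not tested.

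For 67 members the host gene is also in the tables and past the filter, 52 hosts in all. The member and its host lay on the same side of the median gene in 46 pairs with leflunomide and 47 with A771726, and 52 and 56 pairs lay within 2-fold of each other. The median gap was 0.38 and 0.52 (log2), and Pearson's r over the pairs was 0.32 and 0.45. Host and member share reads, libraries and sometimes the host itself, so this is a description. Hosts were less spread, with quartiles of -0.16 and 0.24 with leflunomide, where the members had -0.37 and 0.60. MIR636 and SRSF2 stood alike, at -1.37 and -1.30 with A771726. MIR140 and WWP2 did too, at -1.71 and -1.47. MIR561 and its host GULP1, by contrast, stood at 1.41 and 0.32 with leflunomide, and MIR103A1 and the kinase gene PANK3 by -1.02 and 0.55.

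**Figure D4:**
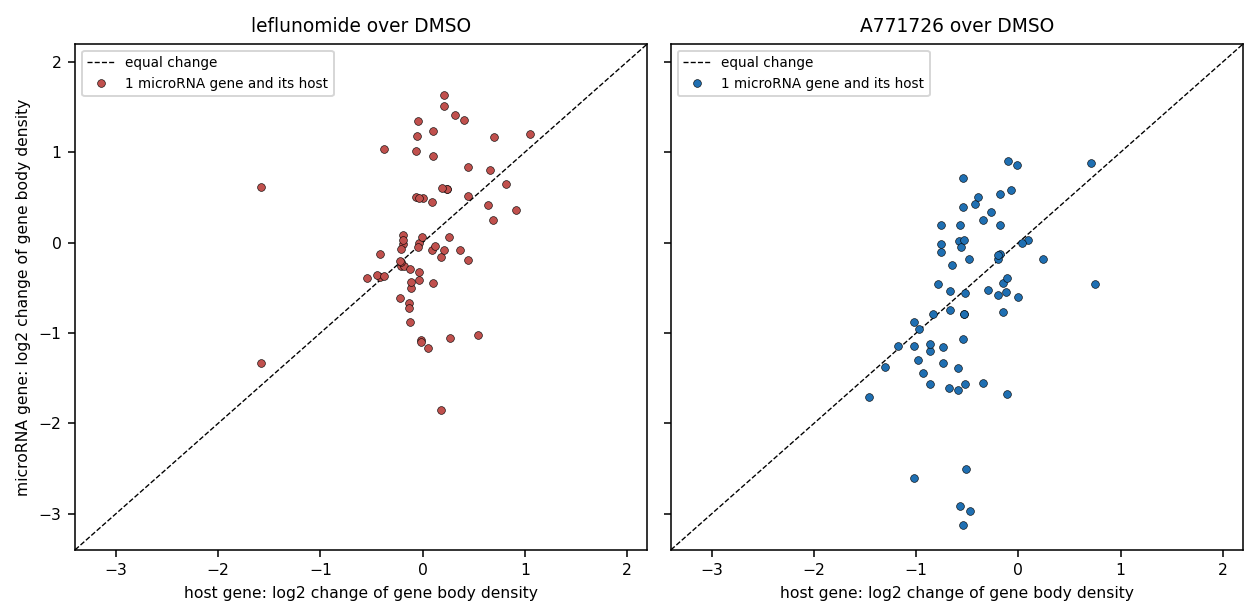
Log2 change of gene body density of 67 microRNA genes (vertical) against that of their host gene (horizontal), leflunomide over DMSO on the left and A771726 over DMSO on the right, with equal change as a dashed line. Members spread further up and down than their hosts do from side to side, and r is 0.32 and 0.45.

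The members are not independent of each other. They lie at 131 loci, and 49 of them in 22 clusters whose neighbours are within 10 kb. Of the 31 neighbouring pairs past the filter 3 had values within 5% of each other in every group, and the median gap between the changes of neighbours was 0.19 with leflunomide and 0.25 with A771726. With leflunomide 3 pairs were more than 1 (log2) apart, MIR181A1 and MIR181B1 by 1.04, MIR24-1 and MIR27B by 1.02, and MIR658 and MIR659 in ANKRD54 by 1.95. With A771726 2 pairs were, MIR296 and MIR298 by 1.04 and again MIR658 and MIR659, by 1.46. MIR374B and MIR374C lie opposite each other on the 2 strands of 1 locus, so whether their reads were separated by strand matters, and the sources used here do not say.

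Promoter windows held little. The promoter mean was 0 at 62 of 158 members (39.2%) with leflunomide, 65 (41.1%) with A771726 and 59 (37.3%) in DMSO. The same shares over all genes were not computed. Of 117 members past the promoter filter, 23 (19.7%) were at least 2-fold higher with leflunomide and 30 (25.6%) lower, against 30.6% and 16% of all genes. With A771726 20 (17.1%) were higher and 40 (34.2%) lower, against 20.8% and 26%. A pseudocount 5 times larger left 5 higher and 9 lower with leflunomide and 0 and 12 with A771726. The shares over all genes at that setting were not computed. The largest promoter changes mostly set a few reads against 0. MIR26B had 0.166 with leflunomide, 0 with A771726 and 0 in DMSO, and MIR195 had 0, 0 and 0.130. MIRLET7B had 0.0740, 0.0361 and 0, and MIR130A 0.0362, 0.0746 and 0. MIR497 had 0.0174, 0 and 0.148, while MIR328 and MIR572 were listed at 0 with both compounds and at 0.126 and 0.109 in DMSO. At the denser genes, MIR21 had 0.772, 0.540 and 0.466, MIRLET7I 0.357, 0.176 and 0.431, and MIR221 0.270, 0.152 and 0.374 in the same order.

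The traveling ratio, promoter over gene body density, could be compared at 51 members. With leflunomide 11 (21.6%) were at least 2-fold higher and 10 (19.6%) lower, against 27.9% and 15.3% of all genes. With A771726 the counts were 11 (21.6%) and 12 (23.5%), against 34.6% and 17.1%. The median change was 0.20 with A771726 for the members and 0.42 for all genes, and with leflunomide it was 0 and 0.27. MIR21 had ratios of 1.18, 1.35 and 1.14 and MIRLET7I of 0.948, 0.894 and 1.62 with leflunomide, A771726 and in DMSO. MIR31 had 1.67, 5.49 and 2.79.

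The filter removed 20 members, 15 of them among the 20 genes of the miR-548 family, which derive from transposable elements and have many copies, so their reads may be shared. Their gene body values lie below the value of 1 read of the other members, as with MIR548A3 at 0.00075 with leflunomide, 0.00045 with A771726 and 0.00075 in DMSO, so the conversion to reads does not hold for them. MIR548K, 1 of the 5 past the filter, had 0.0443 and 0.0320 with leflunomide and 0.0051 and 0 with A771726, against a DMSO mean of 0.0391. MIR105-1 and MIR767, neighbours below the filter, were at 0 in both leflunomide libraries, at 0.0052 and 0 and at 0.0051 and 0 with A771726, and at 0.0159 and 0.0158 in the DMSO means.

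High-numbered microRNA genes past the filter, 189 of 202, give the nearest comparison. With leflunomide 11 (5.82%) were at least 2-fold higher and 33 (17.5%) lower, and with A771726 3 (1.59%) and 62 (32.8%). Their medians were -0.26 and -0.61, against -0.08 and -0.69 for the low-numbered and let-7 genes. The difference between the lists was not tested.

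Genes that make and use microRNAs were mostly near the median gene. The list held 26 symbols, among them older names of the same genes (RNASEN for DROSHA, EIF2C1 to EIF2C4 for AGO1 to AGO4). Of these symbols 15 are in the tables, with AGO1 and AGO2 as EIF2C1 and EIF2C2. DROSHA, XPO5, AGO3, AGO4, ZCCHC11 and DIS3L2 are absent. The filter was passed by 14, where 0 were 2-fold higher and 1 lower with leflunomide (median 0.01, against -0.06 over all genes). With A771726 the counts were 0 and 2 (median -0.59, against -0.52). Of all genes 1.84% were higher and 4.49% lower with leflunomide, and 0.839% and 18.5% with A771726. The lower gene with leflunomide was RAN, the GTPase that drives nuclear export of precursor microRNAs among much else, with means of 0.0608 with leflunomide, 0.0400 with A771726 and 0.140 in DMSO. DGCR8, the partner of Drosha, had 0.0337, 0.0213 and 0.0338, and differed by -0.61 with A771726 in limma (95% interval -1.34 to 0.11, adjusted p = 0.283). TARBP2, a partner of Dicer, had 0.0732, 0.0356 and 0.0461, and DICER1 itself 0.0121, 0.00795 and 0.00820. LIN28B, which blocks let-7 maturation, lay below the filter with 0.00830, 0.00525 and 0.00480, and LIN28A had 0.0180, 0.00745 and 0.0180.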

How the data were processed

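Per the file headers, the authors deposited mean promoter and gene body signal (read density), mean traveling ratios and ratio folds per group. Per the submitters' processing notes, hg18, Bowtie 0.12.9 and bedtools were used. Not stated are the window limits, scaling, strand handling and library depths. The headers write A771762, read as A771726. Fold changes are log2 ratios of means after adding a pseudocount of 0.0022 (gene bodies) or 0.01735 (promoters), which understates changes of low genes, and the deposited ratio had none. Genes at least 2-fold apart were counted without a test. Library values, written to 4 decimals, were solved from the means and ratios, exact pairs only, and a pair with 1 library at 0 was taken where the deposited values require it. Limma 3.58.1 (trend, robust, R 4.3.3) ran on log2(density + pseudocount) with Benjamini-Hochberg adjustment. A trial on simulated libraries left out sparse genes and used less spread between libraries than the members show. It therefore gives no measure of limma's power at these members. Python 3.11.15 with pandas 2.3.3 did the rest. Members and lists were chosen with earlier results of these data known. Named genes were the largest changes by mean, the 10 densest, all let-7 genes, members whose libraries do not overlap, and listed groups. Intervals cover 95%.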

Additional observations from a re-analysis of the deposited data

How the results depend on the processing

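No paired analysis was possible because the deposited columns are group means with no replicate letter and the recovered libraries could not be matched to replicates. The counts of members past 2-fold were recomputed with a pseudocount 5 times larger, no filter or a filter at the 50th percentile, the first row of a symbol, 1 member per set of identical values and centring on the median gene. With the larger pseudocount leflunomide over DMSO gave 9 higher and 14 lower gene bodies, and 5 higher and 9 lower promoters. Promoters gave 0 higher and 12 lower for A771726 over DMSO, and gene bodies 2 higher for A771726 over leflunomide. The 50th percentile filter left 13 lower with leflunomide, and no filter gave 8 higher for A771726 over leflunomide. Centring gave 12 higher (8.7%, against 3.6% of all genes) and 31 lower (22.5%, against 5.73%) for A771726 over DMSO. For A771726 over leflunomide it gave 12 higher (8.7%, against 3.38%) and 28 lower (20.3%, against 3.77%). Centred ratios were higher at 7 members with A771726 over DMSO (13.7%, against 24%). For the larger pseudocount and the other filters the shares over all genes were not computed, so those counts cannot be set against all genes. Over leaving out each library, limma's calls for A771726 over DMSO ranged from 0 to 101 (the lone library then assumed to vary like the other groups), and 0 calls were made in the other 2 comparisons; the subset with known library order was chosen after seeing the data. Of the single values 15 moved, all with the larger pseudocount, and 1635 did not. No value of at least 1 (log2) in size changed sign, and smaller values, which centring can turn, were not scored for sign. A value counted as moved only past a margin set by the median gap between the 2 libraries of a group. Centring shifts values by less than that margin, and the other filters leave a single value as it is. The 1635 are therefore no measure of robustness. The cause of these shifts was not tested. Depth limits most single genes here, since the median member in DMSO held 7.9 to 9.4 reads.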
